A study of Cerrena unicolor with 12 samples.

Results

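Fructose and glucose cultures of *Cerrena unicolor* 87613 were compared at cultivation day 6 (Cd-6), which took 6 of the 12 RNA-seq libraries of the series. The members were chosen by their labels alone, namely the 3 fructose Cd-6 cultures and the 3 glucose Cd-6 cultures. All of them were wild-type hyphae of 1 strain, shaken at 200 rpm and 30°C in liquid potato dextrose medium. Per the labels, 3 cultures were fructose fermentations and the other 3 glucose fermentations, each with the sugar at a concentration that is not given there. Dextrose is glucose, and the sources used here do not say whether the potato dextrose base of the fructose cultures was free of it, so that every difference below is between the media as labelled. The remaining 6 libraries came from fructose and glucose cultures at cultivation day 10 (Cd-10), and they are used below to set the sugars side by side in other cultures, to give the levels of a few genes on the later day, and in a principal component analysis and an alternative fit of all 12 libraries.

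*C. unicolor* is a white rot fungus known for secreting laccase, a copper-containing oxidase that acts on phenols. Fungi take up fructose and glucose as hexoses, phosphorylate both, and pass them into glycolysis, from which pyruvate enters the citrate cycle. Glucose is also the classic signal for carbon catabolite repression in filamentous fungi, by which genes for the use of other carbon sources are kept low, and glucose-6-phosphate feeds the pentose phosphate pathway, a source of the NADPH that keeps glutathione reduced.

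The deposited values are read counts per gene divided by 1 size factor per library, here called normalized counts, with no correction for gene length, so that levels were compared between cultures and not between genes. The authors had scaled the fructose and the glucose libraries apart, and the 6 libraries were therefore rescaled together by median ratios, with factors of 0.956 to 0.963 for fructose and 1.041 to 1.042 for glucose. The libraries held 10281630 to 12049179 assigned reads in fructose and 10626627 to 12126094 in glucose. A value above 0 was found for 10983 to 10995 of the 11281 listed genes in the fructose cultures, against 11019 to 11102 in the glucose cultures. Of the summed values, 12.4% to 13.6% in fructose belonged to the 20 genes with the highest values, against 7.97% to 10.6% in glucose. Neither range overlapped between the sugars, and for each the exact two-sided permutation test gave p = 0.10, the smallest that 3 cultures against 3 allow. Any difference in handling that the labels leave out cannot be told apart from the sugar, since the labels name no batch.

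Along the main axis of variation, the fructose cultures lay closer together than the glucose cultures. On the main axis of a principal component analysis of the 6 libraries, which held 59.9% of the variance over 10115 genes, the fructose cultures scored 39.2, 29.0 and 28.7, against -7.82, -60.9 and -28.1 for glucose replicates 1, 2 and 3. Glucose replicate 2 stood farthest from the fructose cultures, and it was the glucose culture farthest from the fructose mean in 56.1% of the genes tested. Axis 2 held 15.35% of the variance, and there the fructose cultures were spread too. Their scores were 8.94, 21.1 and -9.85, against -28.9, 20.1 and -11.4 for glucose. Pearson's r across genes, which are not independent replicates, was 0.978 to 0.983 between fructose replicates and 0.962 to 0.977 between glucose replicates. With all 12 libraries, the Cd-6 cultures of both sugars lay on one side of the main axis and the Cd-10 cultures on the other.

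**Figure D1:**
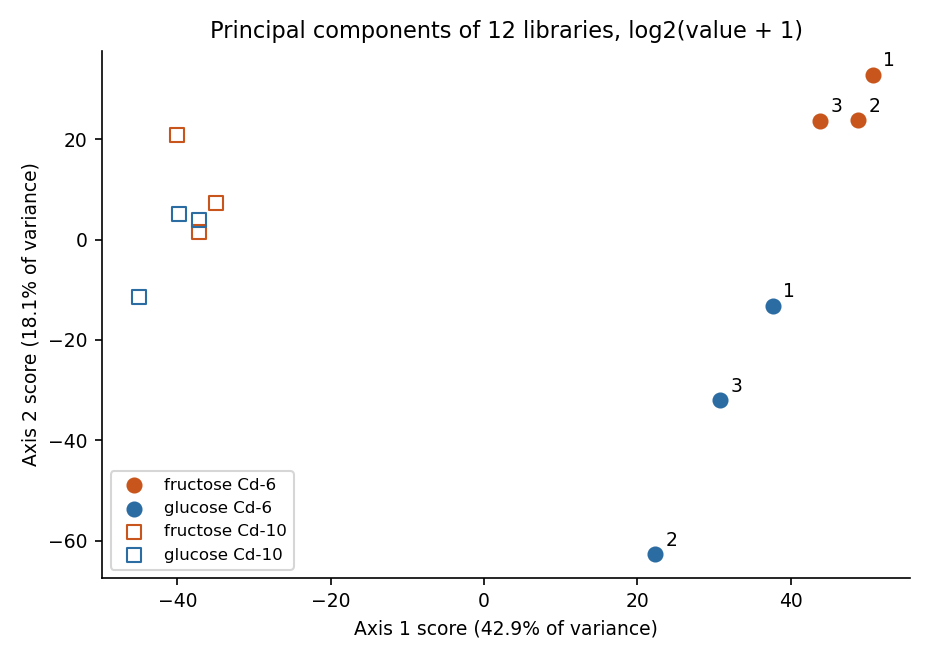
Principal component scores of the 12 libraries on log2(normalized count + 1), with the share of variance on each axis; filled circles are Cd-6 cultures with their replicate numbers, open squares are Cd-10 cultures. The 3 fructose Cd-6 cultures score 23.7 to 32.9 on axis 2, all above the 3 glucose Cd-6 cultures at -62.6 to -13.2.

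A limited share of the genes differed in transcription between fructose and glucose at Cd-6, about equally in both directions after the rescaling. Among 10115 genes with a normalized count of at least 10 in at least 3 libraries, 597 genes, or 5.9%, had a Benjamini-Hochberg adjusted p below 0.05 in limma on log2(value + 1), and these are called changed in what follows. They comprised 304 genes that were higher in fructose (3.01%) and 293 that were lower (2.9%). The median absolute log2 fold change was 1.32 among the changed genes and 0.31 among all genes tested. A log2 fold change of 2 or more was reached by 68 of the higher genes, and one of -2 or less by 68 of the lower genes. In 16 genes the normalized count was at least 10 in every fructose culture and below 10 in every glucose culture, and in 33 genes it was below 10 in every fructose culture and at least 10 in every glucose culture. Because whole mycelium was sequenced, fewer hyphae transcribing a gene and less of its RNA per hypha cannot be told apart.

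The changed genes were found at all levels of transcription. Below a mean normalized count of 100, 64 of 2635 genes changed, 32 of them higher and 32 lower. Between 100 and 1000, 135 were higher and 180 lower among 5051 genes, and between 1000 and 10000, 128 were higher and 78 lower among 2287. Above 10000, 9 of 142 genes were higher in fructose and 3 were lower. With the limits of the study, which ask for a log2 change of 1 or more in size and for P below 0.001 before adjustment, 288 genes (2.85%) were counted, 140 higher and 148 lower, and all of them were also changed by the adjusted p.

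The split between higher and lower genes depended on the scaling. With library size alone, 210 genes were higher and 568 lower, with a median log2 fold change over all genes of -0.27. With the values as deposited, 217 were higher and 467 lower, and the median was -0.12. The higher share was thus 27.0% and 31.7% under these scalings, against 50.9% after the median-ratio rescaling, which places the median at -0.00. The number of changed genes also depended on single cultures, with 13 without fructose replicate 1, 150 without fructose replicate 2, 271 without fructose replicate 3, 1418 without glucose replicate 1, 502 without glucose replicate 2 and 130 without glucose replicate 3. None of the 597 genes turned its direction in any alternative in which it was tested. The groups of all 597 did not overlap, as in 32.5% of all genes tested. Leaving out 1 culture could therefore hardly turn a direction, and the kept directions are not separate evidence. On the recovered reads, edgeR's quasi-likelihood test counted 597 genes, 558 of them shared with limma, and DESeq2 counted 1405, which held all 597.

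**Figure D2:**
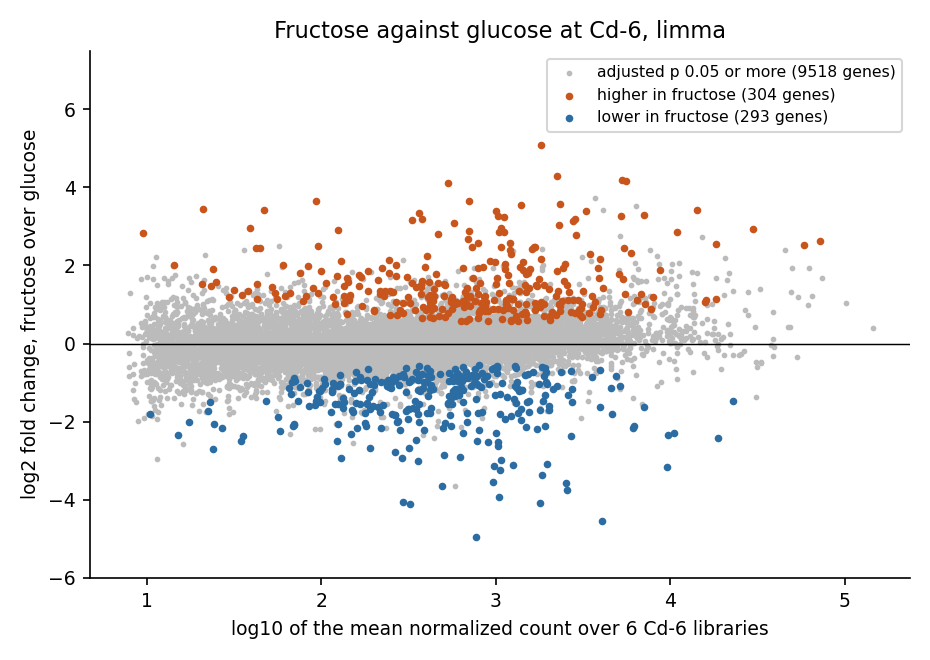
Log2 fold change at Cd-6, fructose over glucose, of the 10115 genes tested in limma, plotted against the log10 of the mean normalized count over the 6 libraries. Orange points are the 304 genes higher in fructose, blue points the 293 lower ones and grey points the 9518 genes that did not pass an adjusted p of 0.05.

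The sources used here give a product or a pathway for only 90 of the 10115 genes tested. The largest changes lay outside these 90, as do nearly all genes. The 2 genes that rose and the 2 that fell most, given next, were chosen among genes in no list. A01313 had 5222, 4799 and 2685 normalized counts in the fructose cultures, against 353, 186 and 132 in the glucose cultures. The groups lay far apart, with a log2 fold change of 4.30 ± 0.38 (SE, n = 3 cultures each, limma adjusted p = 0.0055), and the gene passed in 18 of 18 alternative analyses. A00827 had 3912, 6256 and 575 normalized counts in fructose, against 60.9, 75.7 and 73.2 in glucose. Fructose replicate 3 was well below the other fructose cultures of A00827 but still above every glucose culture, and the log2 fold change was 5.10 ± 0.76 (SE, limma adjusted p = 0.014). Without fructose replicate 1 or glucose replicate 3, the adjusted p of A00827 was 0.079 and 0.058.

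On the lower side, A06328 had 144, 359.6 and 442 normalized counts in fructose, against 2899, 12317 and 8061 in glucose, and fell by 4.53 on the log2 scale (SE 0.58, limma adjusted p = 0.010). Its adjusted p was 0.056 without fructose replicate 1. A02500 had 14.2, 37.6 and 46.6 normalized counts in fructose, against 186, 1736 and 2582 in glucose, and fell by 4.96 (SE 0.93, limma adjusted p = 0.026). The first glucose culture of A02500 was far below the other glucose cultures. The call on A02500 was lost in 5 of the 6 analyses that left out a Cd-6 culture, with adjusted p values of 0.122, 0.080 and 0.066 without fructose replicates 1, 2 and 3, and 0.050 and 0.082 without glucose replicates 2 and 3.

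**Figure D3:**
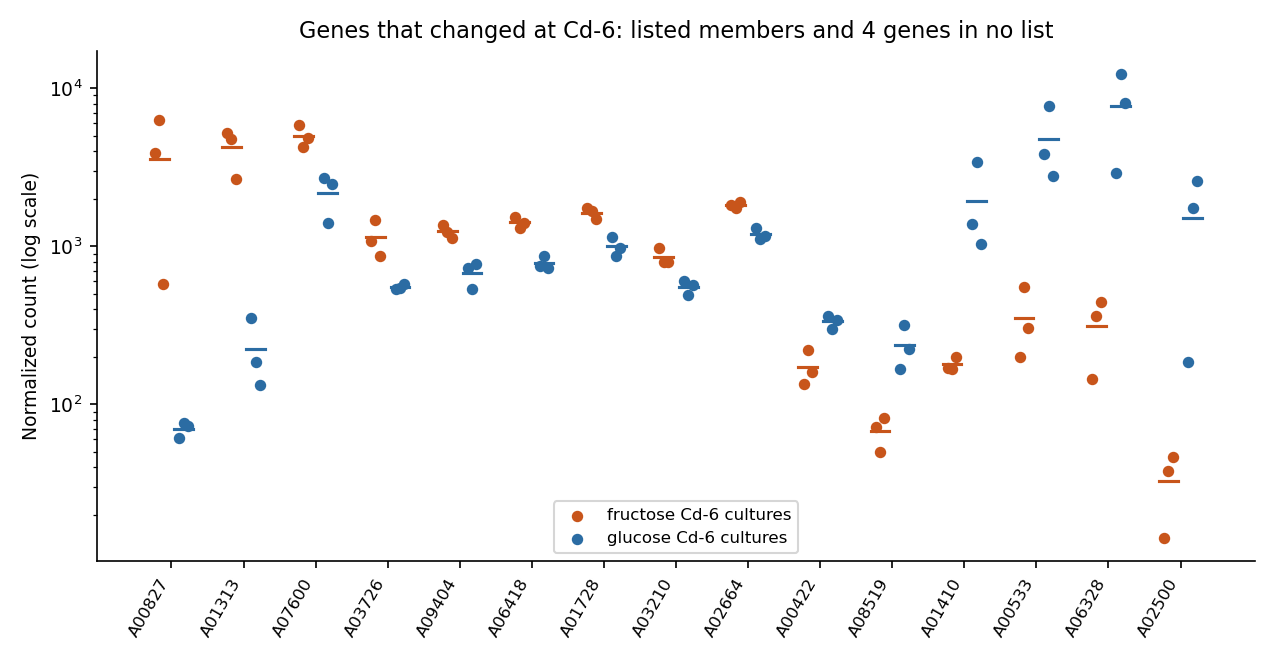
Normalized counts, on a log axis, of 15 genes that changed at Cd-6, with fructose cultures in orange to the left of glucose cultures in blue, a point per culture and a bar at the mean. From left to right stand 2 genes in no list and 7 listed genes that were higher in fructose. Then follow 4 listed genes and 2 genes in no list that were lower. In none of them do the sugars overlap, which holds for all 597 changed genes and for 32.5% of all genes tested.

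The pathways were read through 10 lists of genes that the study assigned to pathways and a list of 11 glutathione pathway genes for which it gave a product, 93 genes in all, of which 90 were tested here and 3 had values too low for the test. The study had chosen these genes for a difference between glucose Cd-6 and glucose Cd-10 cultures. The glucose Cd-6 libraries therefore stand on both sides, and the lists are not independent evidence of a direction. Of the 90 genes, 7 were higher in fructose and 4 were lower, against 3.01% and 2.9% of all genes tested, with a median log2 fold change of 0.02 against -0.00 over all genes. Among the 39 tested genes that the study chose as higher at Cd-6, 4 were higher in fructose and the median was -0.23. Among the 51 chosen as lower at Cd-6, 3 were higher, 4 were lower and the median was 0.21.

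Glutathione is a tripeptide thiol that buffers the cell against oxidation, and the 11 genes with a product cover its synthesis, its reduction and its transfer onto substrates. The study had chosen all 11 as higher at Cd-6 on these glucose cultures. In this group 1 of 11 genes was higher in fructose and none was lower, against 3.01% and 2.9% of all genes tested. The median log2 fold change was -0.19. At an unadjusted P below 0.05 limma counted 2 genes as higher and 1 as lower, against 13.7% and 12.8% of all genes tested. At an adjusted p below 0.05, edgeR and DESeq2 each counted 1 as higher and 0 as lower. Over all 10115 genes, edgeR counted 273 as higher and 324 as lower, and DESeq2 700 and 705. The changed gene was A07600, listed as a trypanothione reductase, an enzyme that in trypanosomes reduces a disulfide of 2 glutathione units joined by spermidine. A07600 had 5870, 4224 and 4838 normalized counts in the fructose cultures, against 2689, 1402 and 2468 in the glucose cultures. Every fructose culture exceeded every glucose culture, and the log2 fold change was 1.23 ± 0.27 (SE, n = 3 each, limma adjusted p = 0.041). The adjusted p was 0.185, 0.091 and 0.108 without fructose replicates 1, 2 and 3 and 0.086 without glucose replicate 3. The other gene listed with this product, A00119, did not pass, with 633, 712 and 526 normalized counts in fructose, against 533.2, 875 and 861 in glucose (log2 fold change -0.25 ± 0.22, SE).

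Neither of the synthesis genes passed the test. A09094, the glutathione synthetase that joins glycine to γ-glutamylcysteine, had 405, 554 and 449.6 normalized counts in fructose, against 595, 547 and 501 in glucose (log2 fold change -0.23 ± 0.16, SE, limma adjusted p = 0.397), and the groups overlapped. A03741, listed under γ-glutamylcysteine, had 2965, 2988 and 3270 normalized counts in fructose, against 3724, 1820 and 2900 in glucose. The spread of its glucose cultures was wider than the difference between the sugars. For the gene listed as glucose-6-phosphate dehydrogenase (G6PDH), the enzyme at the entry of the pentose phosphate pathway, the normalized counts were 3276, 4082 and 3088 in fructose, against 4677, 3099 and 3272 in glucose, with a log2 fold change of -0.07 ± 0.21 (SE).

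The 5 glutathione S-transferases, which couple glutathione to electrophilic compounds, did not pass either. A04379 had 22627, 19061 and 35298 normalized counts in fructose, against 46609, 19369 and 44163 in glucose, where the low glucose value was that of replicate 2. A04373 had 4121, 4172 and 3779 normalized counts in fructose, against 3668, 1387 and 2560 in glucose. Its groups did not overlap, as in 32.5% of all genes tested, and the log2 fold change was 0.77 ± 0.32 (SE, limma adjusted p = 0.176). Without glucose replicate 1 the adjusted p of A04373 was 0.033. The log2 fold changes of the other transferases were -0.49 for A00358, 0.06 for A09881 and -0.23 for A01960. The aminopeptidase A04614 had a log2 fold change of -0.19 ± 0.13 (SE).

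**Figure D4:**
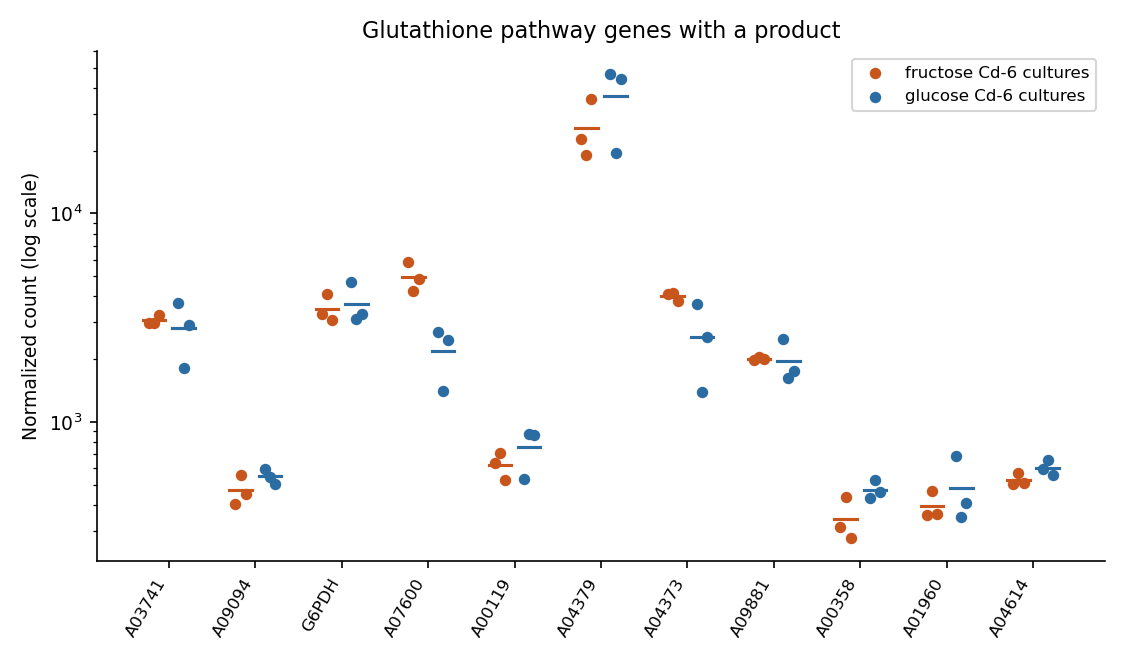
Normalized counts, on a log axis, of the 11 glutathione pathway genes with a product, with fructose Cd-6 cultures in orange to the left of glucose Cd-6 cultures in blue, a point per culture and a bar at the mean (G6PDH, glucose-6-phosphate dehydrogenase). Only A07600 passed the test, with fructose cultures at 4224 to 5870 and glucose cultures at 1402 to 2689.

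In the lists that carry hexose carbon, the changed genes with the largest log2 fold changes were lower in fructose. A00533, listed under carbon, glyoxylate and dicarboxylate, and secondary metabolism, had 199, 553 and 303 normalized counts in the fructose cultures, against 3841, 7699 and 2776 in the glucose cultures. It fell by 3.75 on the log2 scale (SE 0.45, limma adjusted p = 0.010), the fructose cultures lying far below each glucose culture. A01410, listed under starch and sucrose metabolism, had 169, 168 and 201 normalized counts in fructose, against 1382, 3410 and 1030 in glucose, and fell by 3.24 (SE 0.39, limma adjusted p = 0.010). Without fructose replicate 1 the adjusted p was 0.056 for A00533 and 0.062 for A01410, and both genes passed in the other 17 alternatives. A07185, listed under carbon metabolism, had 27.3, 35.4 and 34.4 normalized counts in fructose, against 141, 586 and 87.6 in glucose. The groups of A07185 did not overlap, but with a log2 fold change of -2.55 ± 0.62 (SE) it missed the threshold (limma adjusted p = 0.053). Its adjusted p was 0.038 without glucose replicate 1 and 0.025 without glucose replicate 2.

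These genes had higher normalized counts at Cd-10 in both sugars, a difference between the days that was not tested here. On a scale set over all 12 libraries, A00533 had 29839 to 55773 normalized counts in fructose Cd-10 cultures, against 38701 to 56286 in glucose Cd-10 cultures. On the same scale A01410 had 6542 to 7311 in fructose Cd-10, against 5282 to 9686 in glucose Cd-10, and A07185 had 15504 to 24196 in fructose Cd-10, against 25760 to 36204 in glucose Cd-10. The study had listed all 3 genes as lower at Cd-6, on the glucose cultures used here.

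In pyruvate metabolism, 1 of 12 tested genes was higher and 1 was lower, against 3.01% and 2.9% of all genes tested, with a median log2 fold change of 0.50. A00422 had 134, 220.2 and 159 normalized counts in fructose, against 361, 300.3 and 343 in glucose, and fell by 0.99 (SE 0.21, limma adjusted p = 0.039). A03210, named after its values were seen, had 981, 799 and 799 normalized counts in fructose, against 599, 492 and 566 in glucose, with a log2 fold change of 0.63 ± 0.15 (SE, limma adjusted p = 0.0497). The call on A03210 was at the threshold and held in 7 of 18 alternatives. A00422 held in 13 of 18 and was lost without fructose replicate 1 (adjusted p = 0.171), fructose replicate 3 (0.113) or glucose replicate 3 (0.110). A03210 was lost without each culture but glucose replicate 1, with adjusted p values of 0.220, 0.114 and 0.104 without fructose replicates 1, 2 and 3 and 0.082 and 0.118 without glucose replicates 2 and 3.

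The citrate cycle, which oxidizes the acetyl groups made from pyruvate, had no changed gene among 9 in limma, while all 9 log2 fold changes were above 0, against 49.8% of all genes tested, with a median of 0.59. At an unadjusted P below 0.05, limma counted 5 of the 9 genes as higher in fructose, against 13.7% of all genes tested. At an adjusted p below 0.05, edgeR counted 0 and DESeq2 counted 3, and limma counted 1 without glucose replicate 1. Over all 10115 genes, edgeR counted 273 as higher and DESeq2 700. Limma without glucose replicate 1 counted 818 of 10029 genes as higher. The largest value was that of A07715, with 173, 399 and 180.3 normalized counts in fructose, against 109.8, 78.9 and 139 in glucose (log2 fold change 1.12 ± 0.36, SE, limma adjusted p = 0.106). A07181 had 7225, 6364 and 7237 normalized counts in fructose, against 5118, 2997 and 5508 in glucose (log2 fold change 0.66 ± 0.25, SE). Averaged as the median over the 9 genes of each culture's deviation from the gene's mean log2 level, the fructose cultures lay at 0.21, 0.26 and 0.20 and the glucose cultures at -0.11, -0.57 and -0.18. The list median was 0.39 without glucose replicate 2 and 0.32 with library size alone. The smallest of the 9 log2 fold changes were 0.09 for A03397 and 0.21 for A00541. Library size alone moved the median over all genes to -0.27, so that not all 9 stayed above 0 under that scaling. All 9 genes had been listed as lower at Cd-6 on the same glucose cultures.

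Among the other lists of central metabolism, carbon metabolism had 1 higher and 1 lower gene of 29 (median 0.12), glyoxylate and dicarboxylate metabolism 1 lower gene of 10 (median 0.15), and starch and sucrose metabolism 1 lower gene of 13 (median -0.08), against 5.9% changed among all genes tested. The medians of these lists took the other sign in at least 1 alternative and ranged from -0.15 to 0.22, from -0.11 to 0.28 and from -0.35 to 0.09. A05128 of the glyoxylate list had 1298, 1555 and 1273 normalized counts in fructose, against 749, 558 and 1015 in glucose, and its groups did not overlap, but the adjusted p was 0.063. A06836 of the starch list had a log2 fold change of 0.70 ± 0.31 (SE) and did not pass.

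Of the 12 genes of amino acid biosynthesis, 3 were higher in fructose, against 3.01% of all genes tested, and none was lower, with a median log2 fold change of 0.35. At an unadjusted P below 0.05 limma counted 5 genes as higher and 1 as lower, against 13.7% and 12.8% of all genes. At an adjusted p below 0.05, edgeR and DESeq2 counted 0 as lower, against 324 and 705 of all 10115 genes. The number of these 12 genes that passed as higher ranged from 0 to 4 over the alternatives. A03726, also listed under carbon metabolism, had 1084, 1474 and 863 normalized counts in fructose, against 535, 547 and 576 in glucose, a log2 fold change of 1.01 ± 0.20 (SE, limma adjusted p = 0.030). A06418 had 1528, 1305 and 1411 normalized counts in fructose, against 749, 868 and 729 in glucose, a log2 fold change of 0.86 ± 0.14 (SE, limma adjusted p = 0.017). In both genes every fructose culture exceeded every glucose culture. A02664, named after its values were seen, had 1836, 1753 and 1896 normalized counts in fructose, against 1298, 1117 and 1169 in glucose, with a log2 fold change of 0.62 ± 0.13 (SE, limma adjusted p = 0.039). With library size alone, none of these genes passed, with adjusted p values of 0.077 for A03726, 0.073 for A06418 and 0.123 for A02664. Leaving out 1 culture raised the adjusted p to as much as 0.133 for A03726, 0.113 for A06418 and 0.185 for A02664, in each case without fructose replicate 1. The call on A03726 was also lost without fructose replicate 2 (0.074) and without glucose replicates 2 (just past the threshold) and 3 (0.085), that on A06418 without fructose replicates 2 (0.053) and 3 (0.054) and glucose replicate 3 (0.065), and that on A02664 without each culture but glucose replicate 1.

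In the biosynthesis of secondary metabolites, the largest list, 4 of 49 tested genes were higher and 2 were lower. Of all genes tested, 3.01% were higher and 2.9% lower. The list median was 0.37. The higher genes were the 3 of amino acid biosynthesis and A09404, named after its values were seen, with 1367, 1239 and 1125 normalized counts in fructose, against 727, 535 and 775 in glucose (log2 fold change 0.89 ± 0.18, SE, limma adjusted p = 0.030). The lower genes were A00533 and A08519, also named after its values were seen, which had 72.1, 49.8 and 82.0 normalized counts in fructose, against 167, 318 and 223 in glucose, and fell by 1.76 (SE 0.29, limma adjusted p = 0.018). Without fructose replicate 1, the adjusted p was 0.162 for A09404 and 0.089 for A08519. It was 0.101 and 0.068 for A09404 without fructose replicates 2 and 3, 0.062 for A08519 without fructose replicate 2, and 0.061 and 0.066 for A09404 and A08519 without glucose replicate 3. The highest log2 fold change of the list was that of A00603, with 14893, 10493 and 14137 normalized counts in fructose, against 6470, 1051 and 3060 in glucose. The glucose cultures of A00603 were widely spread, and its log2 fold change of 2.24 ± 0.58 (SE) did not pass (limma adjusted p = 0.063). The adjusted p was 0.0081 without glucose replicate 1 and 0.044 without glucose replicate 2.

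**Figure D5:**
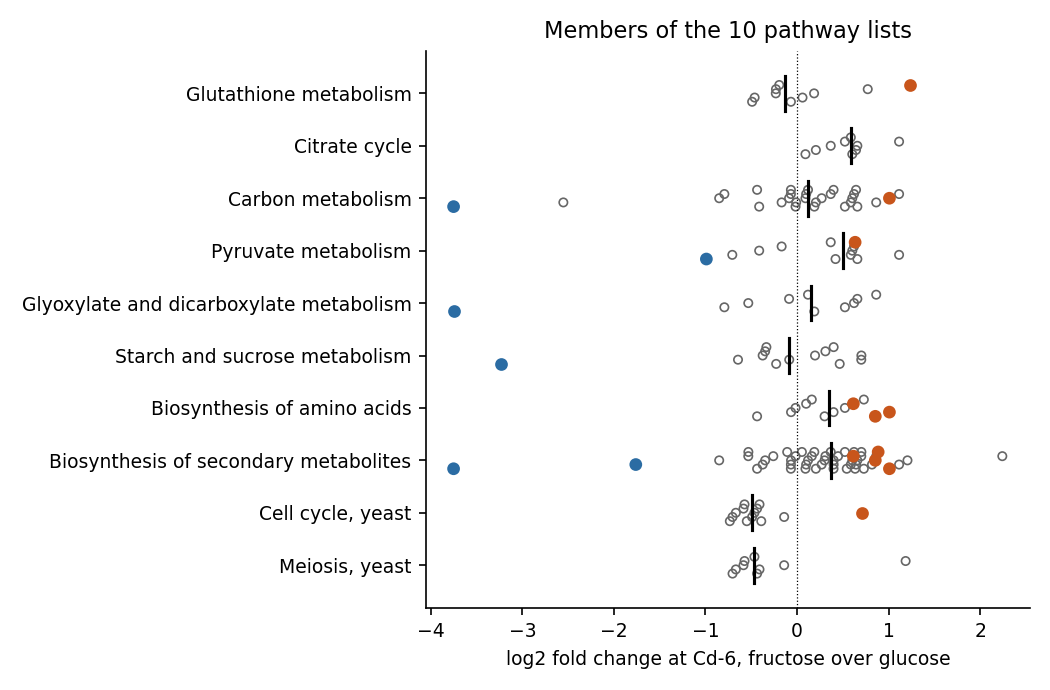
Log2 fold change at Cd-6, fructose over glucose, of each tested member of the 10 pathway lists, with the list median as a black bar. Filled points passed an adjusted p of 0.05, orange for higher and blue for lower in fructose, and open points did not. A gene in several lists appears in each, and the citrate cycle lies wholly above 0 after the median-ratio rescaling.

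The genes listed under the yeast cell cycle and yeast meiosis, pathways of division and spore formation, mostly had negative log2 fold changes, as had 50.2% of all genes tested, but none of them passed as lower. Of 13 cell cycle genes, 12 were below 0 (median -0.49), as were 8 of 9 meiosis genes (median -0.47). These 8 meiosis genes are also in the cell cycle list, so that the lists are not separate results. At an unadjusted P below 0.05, limma counted 7 cell cycle and 5 meiosis genes as lower in fructose, against 12.8% of all genes tested. At an adjusted p below 0.05, edgeR counted 0 in both lists and DESeq2 counted 3 and 2. Over all 10115 genes, edgeR counted 324 as lower and DESeq2 705. The medians remained below 0 in every alternative. The median deviations of the cell cycle genes were -0.24, 0.05 and -0.49 in the fructose cultures and -0.02, 0.50 and 0.21 in the glucose cultures, so that fructose replicate 2 overlapped with glucose replicate 1. Without glucose replicate 1, 4 cell cycle genes and 3 meiosis genes passed as lower, in a fit that counted 600 of 10029 genes as lower. The study had chosen 11 of the 13 cell cycle genes and 8 of the 9 meiosis genes as higher at Cd-6 on these glucose cultures.

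A01254, in both lists, had 428, 480.2 and 329 normalized counts in fructose, against 544, 844 and 639 in glucose (log2 fold change -0.70 ± 0.21, SE, limma adjusted p = 0.092). A07203 of the cell cycle list had 215, 352 and 239 normalized counts in fructose, against 334, 504 and 498 in glucose, and a log2 fold change of -0.73 ± 0.24 (SE). The 1 changed gene was A01728, which went the other way, with 1737, 1661 and 1489 normalized counts in fructose, against 1142, 871 and 977 in glucose (log2 fold change 0.71 ± 0.15, SE, limma adjusted p = 0.039). A01728 passed in 10 of 18 alternatives, and its call was lost without each culture but glucose replicate 1, with an adjusted p of 0.055 without glucose replicate 2 to 0.186 without fructose replicate 1. The other positive value was that of A07141 in the meiosis list, with 76713, 52410 and 81049 normalized counts in fructose, against 61923, 10829 and 41225 in glucose. Its groups overlapped, and with a log2 fold change of 1.19 ± 0.66 (SE) it did not pass.

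In the Cd-10 cultures, which share no library with those of Cd-6, 142 of 10093 genes (1.41%) changed between the sugars, 53 higher and 89 lower in fructose. That count also depended on the analysis, with 427 genes (61 higher, 366 lower) with the values as deposited, 347 in the fit of all 12 libraries, 23 without a variance trend and 13 with a replicate block. Of the 597 genes changed at Cd-6, 592 were tested at Cd-10, and 17 of them changed in the same direction on both days, 3 higher and 14 lower, while 4 changed in the opposite direction. None of the 17 belonged to a pathway list, but the lists hold only 90 of the 10115 genes tested at Cd-6, so that this count says little about them. Both counts depended on single cultures. The count of 17 was 1, 10 and 9 without fructose Cd-6 replicates 1, 2 and 3, and 32, 21 and 9 without glucose Cd-6 replicates 1, 2 and 3. Without fructose Cd-10 replicates 1, 2 and 3 it was 9, 11 and 7, and without glucose Cd-10 replicates 1, 2 and 3 it was 1, 1 and 29, while 59, 58, 43, 15, 16 and 348 genes changed at Cd-10 in the same order of omissions. The 17 genes are 2.87% of the 592 genes and 12.0% of the 142. The sign of the log2 fold change was shared by 370 of the 592 genes (62.5%), against 52.7% of the 9926 genes tested on both days.

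Of 292 genes lower in fructose at Cd-6, 224 were also below 0 at Cd-10, with medians of -1.34 at Cd-6 and -0.32 at Cd-10. Of 300 higher genes, 146 were also above 0 at Cd-10, with medians of 1.29 at Cd-6 and -0.02 at Cd-10. Of the 9926 genes tested on both days, 4913 were below 0 at Cd-10 and 5013 above, so that the higher genes were near that share. A06328 had 8219, 7579 and 4693 normalized counts in fructose Cd-10 cultures, against 12849, 13743 and 13222 in glucose Cd-10 cultures (log2 fold change -0.999, limma adjusted p = 0.061). A07600 had 1045, 1457 and 799.9 normalized counts in fructose Cd-10, against 373.5, 429.8 and 846 in glucose Cd-10 (log2 fold change 1.05, limma adjusted p = 0.126), and the groups overlapped there. The cell cycle and meiosis lists had medians of 0.50 and 0.55 at Cd-10, and the citrate cycle 0.18.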

How the data were processed

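RNA from 3 cultures per carbon source and day was sequenced on an Illumina platform. The authors used Hisat2 to map clean reads to the strain's genome and featureCounts to count them, and the submitters' processing notes name HISAT2 and Cufflinks. The deposited signal per gene is a read count over the size factor of its library, which the authors set apart within each sugar. Every value of the 6 Cd-6 libraries (100%) was a whole number of reads (tolerance 0.01), so that reads were recovered (10281630 to 12126094 per library), and edgeR 4.0.16 and DESeq2 1.42.0 were run on them as alternatives.

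The main test was limma 3.58.1 (R 4.3.3, variance trend) on log2(value + 1) after median-ratio rescaling of the 6 libraries, for genes of at least 10 in at least 3 libraries. This scale understates the change of low genes. The p values cover the spread of 3 replicate cultures. Replicates of the same sugar at Cd-6 differed by more than sampling noise (lowest chi-square per gene 25.6), and no other pairs were compared.

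The genes named were the 11 with a product, the 2 members of each of 10 lists with the largest change, and, outside the lists, the 2 that rose and the 2 that fell most among genes that changed, averaged 1 CPM or more and had groups that do not overlap. Other list members are marked as named after their values were seen. The comparison, lists and rules were chosen with earlier results of these data known. The reference gene table, of another strain, matched 0 of 11281 IDs, and genome positions and the laccase genes were not analysed here. Fits were tested on simulated data. Alternatives were other scalings, filters, pseudocounts and variance priors, a replicate block, all 12 libraries in 1 fit, and each culture left out. Summaries used pandas 2.3.3 and numpy 2.4.6 in Python 3.11.15, with figures from matplotlib 3.10.9.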

Additional observations from a re-analysis of the deposited data

Results flagged for a closer look

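In 3 of 34 named genes, the sugars did not overlap on either day and stood in opposite order at Cd-6 and Cd-10. The difference between the days was not tested. The groups did not overlap in 32.5% of all genes tested at Cd-6 and in 29.4% at Cd-10. Genes with opposite order were not counted over all genes. Most of the named genes were chosen for a large change at Cd-6, which makes groups that do not overlap there more likely. A01313 had a log2 fold change, fructose over glucose, of 4.30 at Cd-6 and -2.42 at Cd-10, where it had 933, 790.2 and 1800.5 normalized counts in fructose, against 11499, 9410.5 and 1891 in glucose (limma adjusted p = 0.082). A01728 of the cell cycle list had 0.71 at Cd-6 and -0.44 at Cd-10, with 1785, 1242 and 1556 normalized counts in fructose Cd-10 cultures, against 1989, 2265 and 1914 in glucose Cd-10 cultures. A01254 of the cell cycle and meiosis lists had -0.70 at Cd-6 and 1.16 at Cd-10, with 380.3, 409 and 558 normalized counts in fructose Cd-10, against 189, 167 and 244 in glucose Cd-10 (limma adjusted p = 0.044).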

How the results depend on the processing

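The count of 597 genes was within 1.5 times under other scalings, filters and pseudocounts and in edgeR, while the scaling moved its split, with 568 genes lower by library size alone and 467 as deposited. It was 357 without a variance trend (170 higher, 187 lower), 1072 with all 12 libraries in 1 fit (550 and 522) and 1405 in DESeq2 (700 and 705). Leaving out 1 culture gave 13 to 1418 genes, 8 to 818 higher and 5 to 600 lower. By the limits of the study, 288 genes became 599 in DESeq2 (287 higher, 312 lower), and 91 were higher and 224 lower by library size alone; leaving out 1 culture gave 122 to 492, 61 to 283 higher and 61 to 209 lower. The 17 genes changed alike on both days became 59 as deposited, 1 without a variance trend and 49 in the fit of 12 libraries, and 1 to 32 without 1 culture of either day. With the replicate number as a block, 750 genes changed, 335 passed the limits of the study and 3 changed alike on both days. The numbers were not treated as pairs because the labels tie them to nothing shared and the study's methods name no block. The same-number correlations of deviations (0.127, 0.200 and 0.093) exceeded those of other numbers (-0.14 to 0.035), a hint of pairing from the data. The hint is weak, since deviations cancel within each sugar and positive same-number values lower the others. All 13 genes left without fructose replicate 1 were among the 597, and they passed in every alternative.

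Of 612 alternative values of 34 named genes, 67 lost the call, 22 gained it and 9 took the other sign, none of them past the threshold. The last were A03741 at -0.082 (library size alone), A09881 at -0.208 (library size alone) and -0.0573 (as deposited), and values without 1 culture, which ranged from -0.0947 to 0.418 for A03741, from -0.185 to 0.118 for G6PDH, from -0.0619 to 0.251 for A09881 and from -0.428 to 0.0535 for A01960. The causes were not tested. With 3 cultures per sugar and 1 glucose culture apart, genes that did not pass are not shown to be alike.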
